A study of Mus musculus with 2 samples.

Results

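Many mouse genes are still known by the name of a RIKEN cDNA clone, a code that ends in Rik, and clones with the prefix 1700 came from a library of adult male testis. The genes described here were the rows of the count matrix whose symbol starts with 1700 and ends with Rik and that had at least 1276 unique molecular identifiers (UMIs, counted RNA molecules) over all cells, a mean of 0.5 UMI per cell. This rule kept 229 of 479 RIKEN 1700 genes, of which 470 had any UMI, among the 51868 rows of the matrix. The members nearest the minimum from above were 1700110K17Rik with 1311 UMIs, 1700080N15Rik with 1314 and 1700094M24Rik with 1328. The genes nearest from below were 1700012D16Rik with 1254 UMIs, 1700023H06Rik with 1240 and 1700123K08Rik with 1236. Because the rule used the UMI total, the totals themselves are a description of the choice.

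The cells came from the testes of 2 untreated wild-type C57Bl/6J Crl mice, 8 weeks old, with 1 droplet library of 3' ends per mouse. Mouse 1 gave 1237 cells and 27450497 UMIs (median 17871 per cell), mouse 2 gave 1315 cells and 30302332 UMIs (median 19184), and no barcode was shared. In the adult testis, spermatocytes pass through meiosis and become haploid round spermatids. These elongate and condense as the sperm tail forms and histones are replaced, first by transition proteins and then by protamines. Transcription stops during that replacement, so late spermatids draw on RNA that was made and stored earlier. Male germ cells also make many long non-coding RNAs and transcripts of young genes that other tissues lack.

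Cells were grouped by K-means on all rows except RIKEN genes, so no member took part in the clustering, and clusters were called "-like" from lists of marker genes. Clusters 1 and 2 were spermatocyte-like (163 early cells and 528 pachytene or later cells), cluster 4 round spermatid-like (441 cells), and clusters 5 and 6 elongating or condensing spermatid-like (701 cells, of which 208 in cluster 5). Cluster 3, with 701 cells and Ssxb1 and Ssxb2 among its leading genes, had only 2 of 12 round spermatid markers raised and kept no name. The remaining cells were 6 spermatogonium-like, 7 Sertoli-like and 5 Leydig-like. Prm1, Prm2, Tnp1 and Tnp2, the protamines and transition proteins that define late spermatids, took 18.6% and 15.4% of the UMIs of cluster 6 in mouse 1 and mouse 2, against 0.304% and 0.252% in cluster 2.

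The members together held 2430557 UMIs, 4.21% of all UMIs, with 4.17% in mouse 1 and 4.24% in mouse 2. Among clusters 1 to 6 their share was lowest in early spermatocyte-like cells (1.61% and 1.60% in the respective mice) and was 2.70% and 2.60% in cluster 2, the pachytene or later cells. It was 4.0% and 4.14% in the unnamed cluster, 5.64% and 5.48% in cluster 4, 6.46% and 6.20% in cluster 5 and 6.66% and 6.54% in cluster 6. The values of the mice differed by less than the steps between neighbouring clusters, except between clusters 5 and 6, where the step was of the same size as the difference between the mice. Counted per cell, member UMIs were 336 and 350 in cluster 1, 913 and 885 in cluster 2, 760 and 913 in cluster 3, 1305 and 1276 in cluster 4, 1469 and 1553 in cluster 5 and 830 and 888 in cluster 6. The mice thus differed in the direction from cluster 2 to cluster 3. The late fall per cell in cluster 6 stood beside a lower median UMI count there, 11163 and 12402 against 23248 and 21577 in cluster 5.

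**Figure D1:**
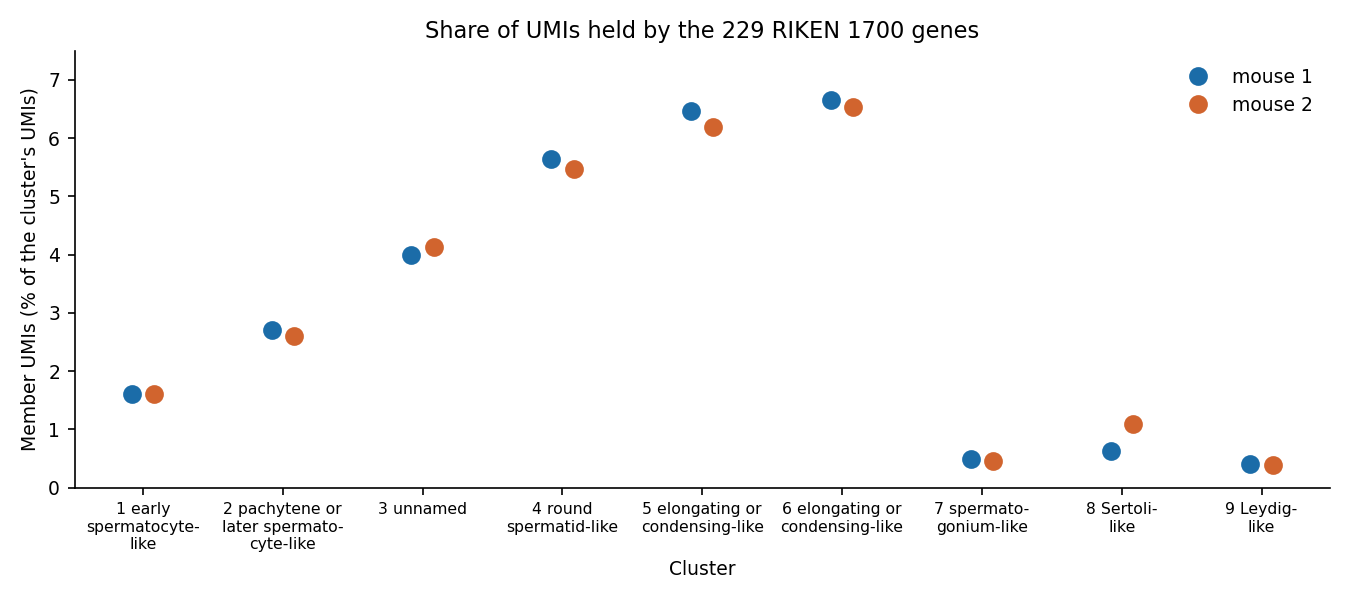
Share of each cluster's UMIs held by the 229 members (vertical axis, percent) in the 9 clusters (horizontal axis), with 1 point per mouse. The share climbs from 1.61% and 1.60% in cluster 1 to 6.66% and 6.54% in cluster 6 and lies between 0.390% and 1.10% in the 3 small clusters.

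The 12 Sertoli-like and Leydig-like cells served as the level to expect from free RNA, since these somatic cells are not known for genes of haploid germ cells. They held 785 member UMIs of 135496, or 0.579%, and 64 of the 229 members had no UMI there. A count of 0 allows a level of up to 3 counts, or 22.1 CPM (UMIs scaled to the same total), which covers counting error only. A member was found in 24.7% to 99.3% of all cells, with a median of 61.2%. Shares of cells therefore hold an unknown contribution of free RNA, and the results below use summed UMIs.

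The annotation (GENCODE, GRCm38 assembly) listed 114 of the 229 members as long non-coding (49.8%), 101 as protein coding (44.1%), 8 as pseudogenes and 6 as loci that await experimental evidence. Among the 5417 annotated genes with as many UMIs, 7.09% were long non-coding and 91.1% protein coding. Protein coding members held 68.1% of the member UMIs and long non-coding members 26.3%, with medians of 15232 and 2827.5 UMIs per gene. Transcripts of coding members had a median of 4 exons, and those of non-coding members 3. The X chromosome carried 6 members and the Y chromosome none, while chromosome 5 carried 24 (10.5%, against 7.13% of the genes with as many UMIs).

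For 103 members (45.0%) an annotated gene overlapped on the opposite strand, and for 26 (11.4%) on the same strand. Of the annotated genes with as many UMIs, 46.9% and 20.5% had such an overlap. The study assessed reads antisense to exons as a class of their own at mapping, but whether the counting left them out is not given in the sources used here. What part of the UMIs of these members came from a partner was not tested. A further property, a near-identical copy elsewhere in the genome, applied to 14 members, whose counts are uncertain because reads can be lost or shared between copies. Among them were 1700084M14Rik and 1700003E24Rik on the X chromosome, which are near-identical to each other, and 1700018F24Rik and 1700010D01Rik. The calls given next were similar with and without an opposite-strand gene. Of these members, 71 of 103 (68.9%) and 93 of 126 (73.8%) were higher in round spermatid-like than in spermatocyte-like cells. Of all rows with as many UMIs, 39.3% were.

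The most abundant members had different courses. UMIs count transcript ends and were not divided by length, and the values that follow are plain CPM of each cluster and mouse. 1700010I14Rik, a protein coding gene at chr17:8988333-9011949 (+ strand), had the most UMIs, 69561. Its level was 879 and 1089 CPM in cluster 1 of mouse 1 and mouse 2, 1725 and 1728 in cluster 2, 1627 and 1600 in cluster 3, 936 and 932 in cluster 4, and 98.2 and 94.8 in cluster 6. It was thus highest in pachytene or later spermatocyte-like cells in both mice. The mice were close in clusters 2, 3, 4 and 6 and further apart in cluster 1.

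1700003F12Rik, protein coding at chr2:154547085-154550003 (+ strand), rose from cluster 2 to cluster 6. It had 177 and 102 CPM in cluster 1, 76.6 and 86.0 in cluster 2, and 485 and 551 in cluster 3. It then had 1234 and 1221 in cluster 4, 2408 and 2354 in cluster 5 and 3002 and 3018 in cluster 6. The Sertoli-like and Leydig-like cells had 118 CPM of it. 1700074P13Rik, protein coding at chr6:40920437-40940557 (- strand), was high throughout, with 658 and 714 CPM in cluster 2, 819 and 925 in cluster 4 and a highest level of 1722 and 1803 in cluster 5. 1700008K24Rik, a long non-coding RNA at chr17:49112263-49113535 (- strand), was found in 99.3% of cells, the largest share of any member, and ranged only from 422 to 946 CPM over clusters 1 to 6 and both mice.

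The third most abundant member, 1700027A15Rik, is a long non-coding gene at chr1:72984844-73025507 (+ strand) that overlaps Tnp1, the gene of transition protein 1, on the opposite strand. It had 142 and 129 CPM in cluster 2, 325 and 233 in cluster 4, 2602 and 2077 in cluster 5 and 5877 and 5480 in cluster 6, the highest level of any member in any cluster. Tnp1 itself had log2 fold changes of 2.04 (SE 0.18) from spermatocyte-like to round spermatid-like cells and 4.60 (SE 0.20) on to cells of clusters 5 and 6. Those of 1700027A15Rik were 1.24 (SE 0.16) and 4.80 (SE 0.18). The Sertoli-like and Leydig-like cells held 43 UMIs of it, or 317 CPM. Its plain CPM were 157 and 135 in the spermatocyte-like and 325 and 233 in the round spermatid-like class. How much free RNA lay in these levels was not tested. Whether its UMIs came from its own transcript or from Tnp1 was not tested.

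**Figure D2:**
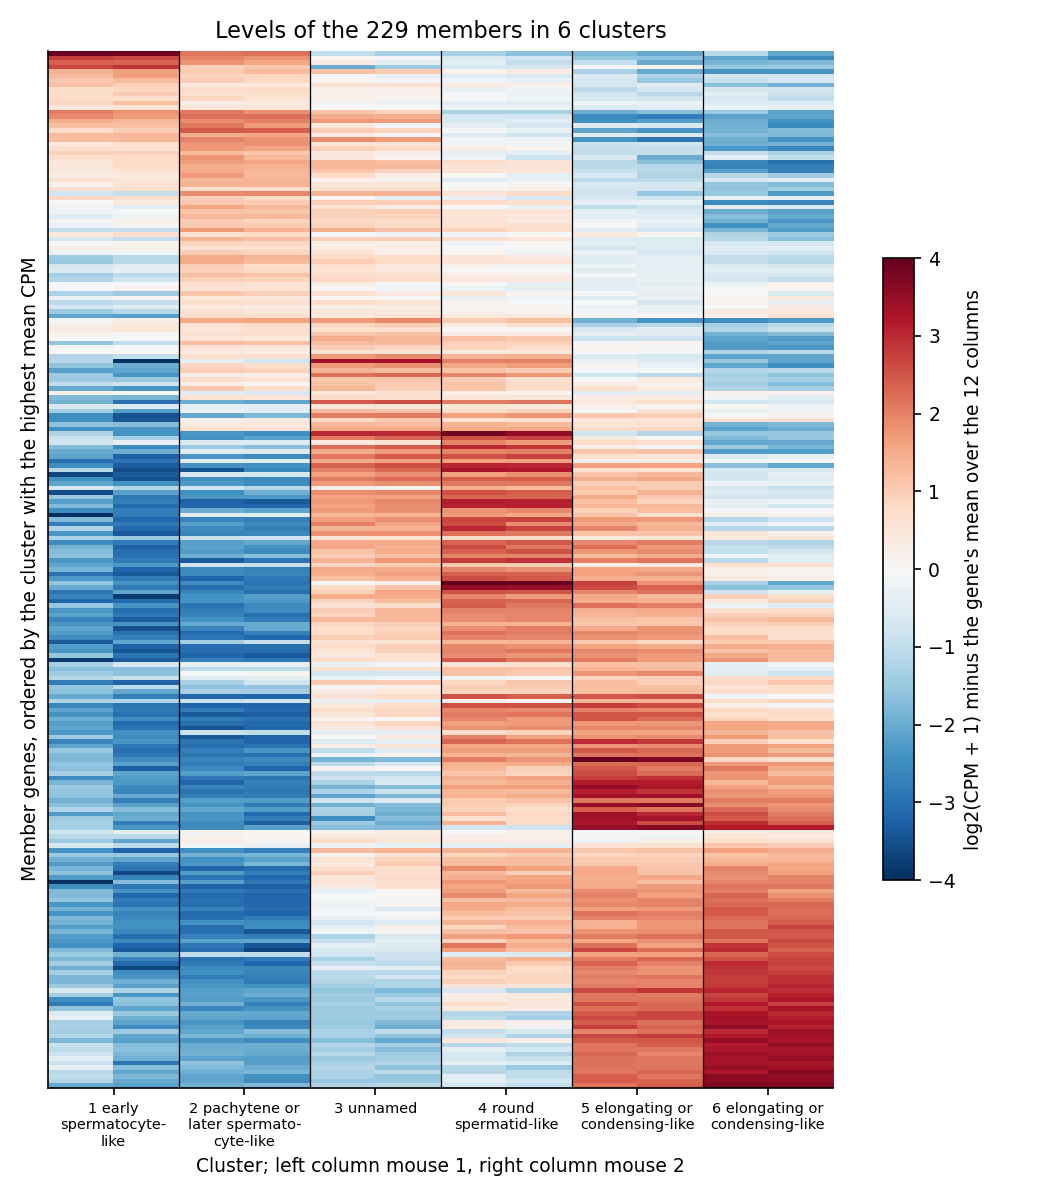
Levels of the 229 members (rows) in clusters 1 to 6 (columns, mouse 1 left and mouse 2 right within each), as log2(CPM + 1) minus the mean of the gene over the 12 columns. Red is above and blue below the gene's mean, and most rows are blue in clusters 1 and 2 and red in clusters 4 to 6, with the mice alike.

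In plain CPM, 217 of the 229 members (94.8%) had their highest level in the same cluster in both mice. So did 88.8% of the 5493 rows with as many UMIs. The 217 members were 10 in cluster 1, 45 in cluster 2, 22 in cluster 3, 53 in cluster 4, 34 in cluster 5 and 53 in cluster 6. For all 5493 rows with at least as many UMIs, 24.1% peaked in cluster 1 and 23.7% in cluster 2 in both mice, against 4.37% and 19.7% of the members. The spermatid-like clusters 4, 5 and 6 took 23.1%, 14.8% and 23.1% of the members, against 11.96%, 8.01% and 9.30% of those rows. Among non-coding members 24.6% peaked in cluster 2, and among coding members 10.9%. CPM was also divided by TMM (trimmed mean) factors, which rescale the total of each cluster and mouse. On that scale 90 members (39.3%) peaked in cluster 6 and 18 (7.86%) in cluster 5. Of the rows with as many UMIs, 20.6% and 5.32% did so.

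**Figure D3:**
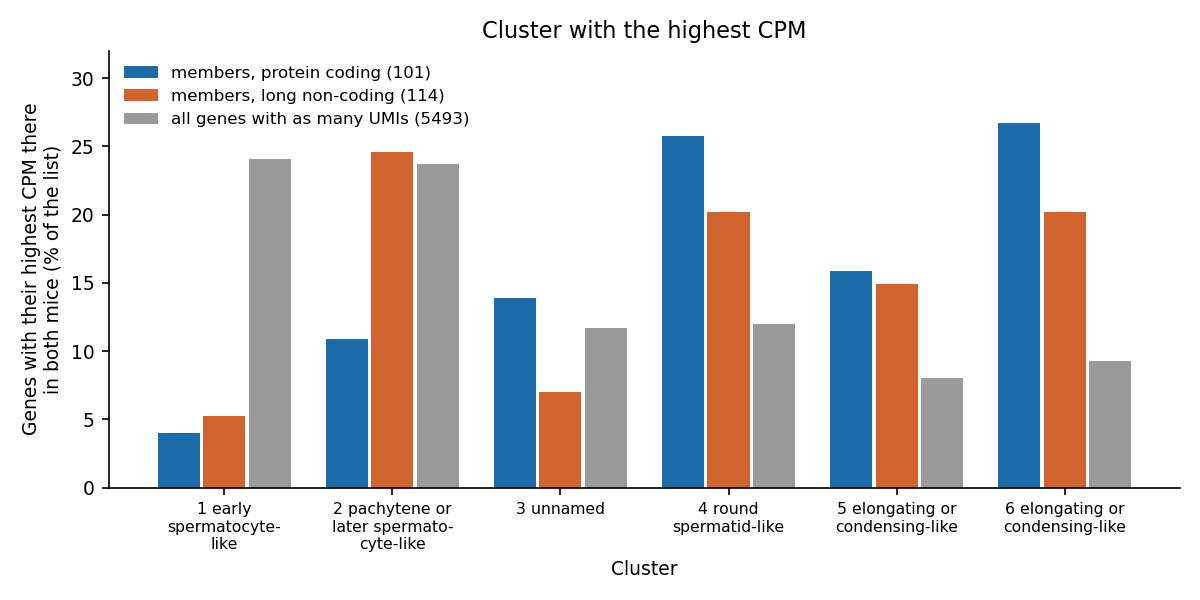
Percent of each list (vertical axis) with its highest CPM in a given cluster in both mice (horizontal axis), for 101 coding members, 114 non-coding members and all 5493 rows with as many UMIs. The grey bars are tallest in clusters 1 and 2, at 24.1% and 23.7%, while the bars of coding members are tallest in clusters 4 and 6, at 25.7% and 26.7%.

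To test changes over mice, UMIs were summed per mouse over 3 classes, spermatocyte-like (clusters 1 and 2), round spermatid-like (cluster 4) and elongating or condensing spermatid-like (clusters 5 and 6). The last class is called late spermatid-like from here on. These 6 sums entered edgeR's quasi-likelihood test together with those of the unnamed cluster, kept as a class of its own. That class took part in the filter, the TMM scaling and the estimate of the spread, but in neither comparison. Adjustment of p-values was by Benjamini-Hochberg over the 14264 rows tested. All 229 members passed the filter on low counts. Each class has n = 2 mice, and levels of classes are given as CPM after TMM scaling, first mouse 1 and then mouse 2. In these tables fewer cells that express a gene and less RNA of it per cell cannot be told apart.

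In round spermatid-like cells, 164 of 229 members (71.6%) were higher than in spermatocyte-like cells, 42 (18.3%) were lower and 23 did not pass the test. Of all rows tested, 38.3% were higher and 40.8% lower. Of the 5493 rows with as many UMIs as the members, 39.3% were higher and 44.1% lower. A change of at least 4-fold was found upward in 124 members (54.1%) and downward in 9 (3.93%), against 22.4% and 10.1% of the rows with as many UMIs. The median log2 fold change of the members was 2.72, that of all rows tested −0.12. Of the 101 coding members 82 were higher and 11 lower, and of the 114 non-coding members 74 were higher and 28 lower. When each cell was thinned to 5000 UMIs, 162 members were higher and 26 lower.

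The members that rose most at this step were nearly silent in spermatocyte-like cells. 1700029E06Rik, a long non-coding gene at chr5:58453039-58455292 (+ strand), had 1.28 and 0.769 TMM-scaled CPM in the spermatocyte-like class, 230 and 206 in the round spermatid-like class, and 67.3 and 42.9 in the late class. Its log2 fold change into round spermatid-like cells was 7.69 (SE 0.27; edgeR adjusted p = 4.3e-12), the largest of any member. 1700010H22Rik, non-coding at chr5:98553629-98567004 (- strand), went from 0.805 and 1.08 to 158 and 143 and back to 26.7 and 29.0. Both mice had the peak in cluster 4 for either gene. Neighbouring clusters held some of it, with 66.4 and 79.6 CPM of 1700010H22Rik in the unnamed cluster and 92.7 and 47.9 CPM of 1700029E06Rik in cluster 5.

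1700010H22Rik lies opposite to another member, 1700007G11Rik, which RefSeq calls Cfap299 after cilia and flagella associated proteins. 1700007G11Rik had 260 and 232 TMM-scaled CPM in the spermatocyte-like class and 274 and 246 in round spermatid-like cells, a log2 difference of 0.08 (SE 0.12; edgeR adjusted p = 0.54). They are the only pair among the 229 members that overlaps on opposite strands, and the difference between them was not tested. 1700007G11Rik was chosen for this comparison after its values were seen.

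The coding members that rose most were 1700001P01Rik, 1700007K09Rik and 1700067P10Rik, with log2 fold changes of 6.81 (SE 0.16), 6.70 (SE 0.15) and 6.57 (SE 0.16). 1700001P01Rik, at chr11:97771481-97775918 (- strand), had 7.31 and 7.69 TMM-scaled CPM in spermatocyte-like, 859 and 824 in round spermatid-like and 344 and 363 in late spermatid-like cells. 1700007K09Rik, named Fam24b in RefSeq, had 6.98 and 6.31, then 709 and 683, then 205 and 200. 1700067P10Rik, coding in GENCODE but a long non-coding RNA in RefSeq, had 7.51 and 6.31, then 652 and 667, then 203 and 217. These 3 genes were chosen for the largest rises that went the same way in both mice. The gap between their spermatocyte-like and round spermatid-like values follows from that choice.

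The 42 members that fell at this step all had their highest plain CPM in a spermatocyte-like cluster in both mice, and 35 of them with CPM divided by TMM factors. 1700006A11Rik, protein coding at chr3:124400989-124426040 (- strand), had 280 and 260 CPM in cluster 1, 79.0 and 81.4 in cluster 2 and at most 7.98 in clusters 3 to 6. Its log2 fold change from spermatocyte-like to round spermatid-like cells was −4.05 (SE 0.24; edgeR adjusted p = 1.3e-09), the strongest fall of any member. 1700102P08Rik and 1700026D11Rik had the same early peak, at 369 and 334 CPM and at 79.4 and 77.6 CPM in cluster 1, and log2 fold changes of −2.45 (SE 0.13) and −2.35 (SE 0.25).

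1700029P11Rik, a single-exon coding gene at chr15:81980540-81981563 (+ strand), peaked later, at 561 and 559 CPM in cluster 2. It kept 342 and 321 CPM in the unnamed cluster and 74.96 and 72.7 in cluster 4, with a log2 fold change of −2.55 (SE 0.12). 1700052K11Rik, a non-coding gene opposite to Tlk2, went from 80.9 and 67.1 CPM in cluster 2 to 7.01 and 6.87 in cluster 4 (log2 fold change −3.10, SE 0.19). For both genes the unnamed cluster lay between its neighbours.

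**Figure D4:**
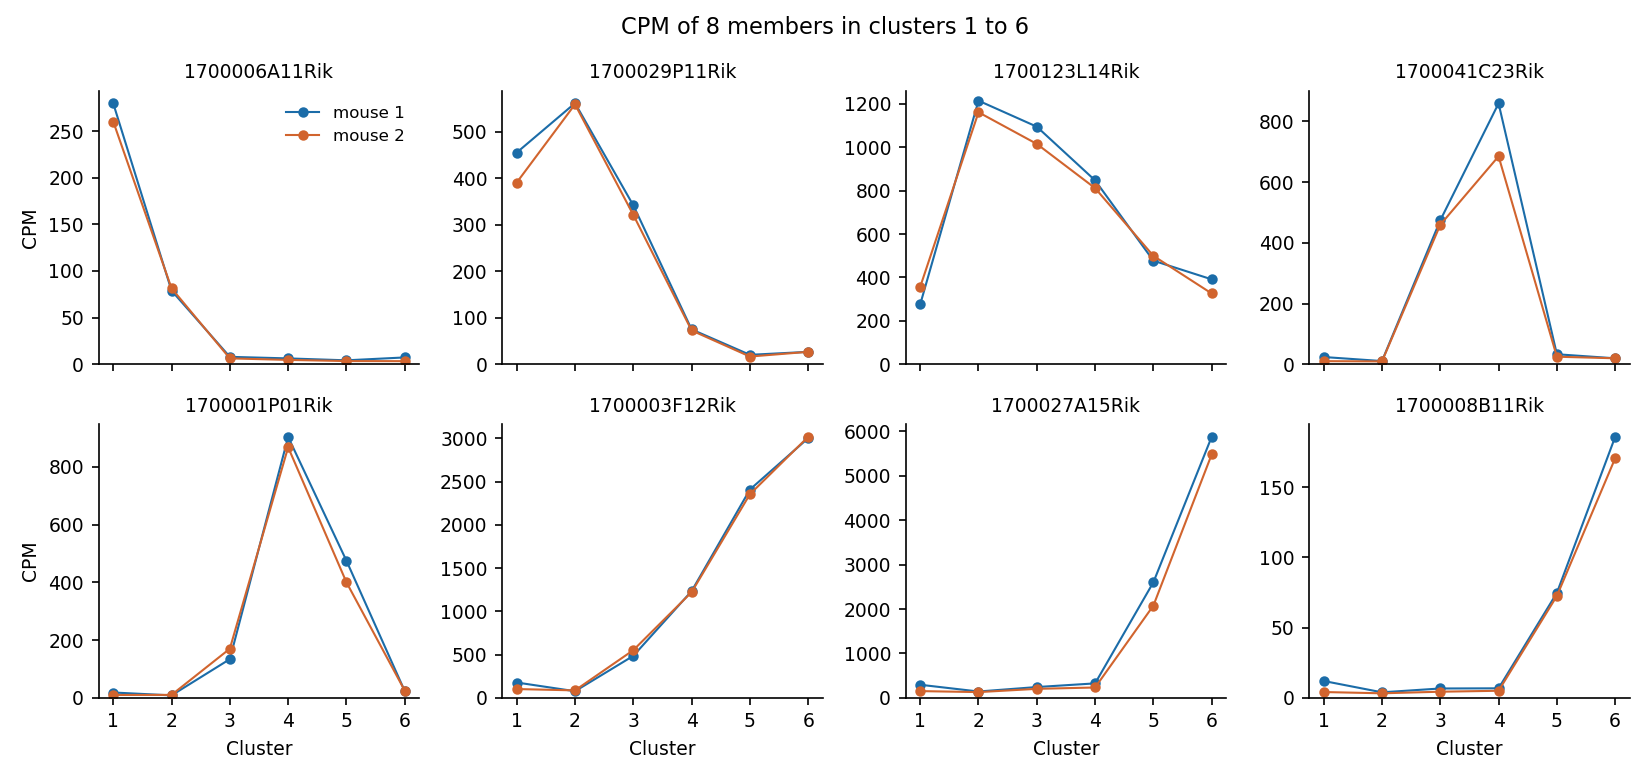
CPM (vertical axes, linear from 0, own scale per gene) of 8 members in clusters 1 to 6 (horizontal axes), with 1 line per mouse. 1700006A11Rik is highest in cluster 1 (280 and 260 CPM), 1700041C23Rik and 1700001P01Rik in cluster 4, and 1700003F12Rik, 1700027A15Rik and 1700008B11Rik in cluster 6.

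From round spermatid-like to late spermatid-like cells, 120 of 229 members (52.4%) were higher, 69 (30.1%) lower and 40 did not pass the test. Of all rows tested, 28.1% were higher and 27.1% lower, and of the 5493 rows with as many UMIs 33.4% and 40.4%. At least 4-fold changes were found upward in 39 members (17.03%) and downward in 7 (3.06%), against 8.23% and 4.73% of the rows with as many UMIs. The median log2 fold change was 0.45 for the members, −0.03 for all rows tested and −0.15 for the rows with as many UMIs. Coding members were split into 54 higher and 39 lower, non-coding members into 59 higher and 25 lower.

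This split depends on the scaling. TMM factors were 0.572 and 0.578 for the late spermatid-like sums against 1.06 in round spermatid-like cells of both mice. Prm1, Prm2, Tnp1 and Tnp2 took 7.89% and 6.78% of the UMIs of cluster 5 and 18.6% and 15.4% of cluster 6. Whether such genes account for the factors, and which scaling is closer to the true levels, was not tested. With total counts in place of TMM, 64 members were higher and 120 lower, so the higher share of the calls fell from 63.5% to 34.8%. For the rows with as many UMIs the same share fell from 45.2% to 17.4%. The median over all rows tested moved from −0.03 to −0.91 and that of the members from 0.45 to −0.43. At the earlier step the median of all rows moved from −0.12 to −0.42, and 157 members were higher and 56 lower.

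The strongest late risers were small in spermatocyte-like and round spermatid-like cells alike. 1700008B11Rik, non-coding at chr5:121835195-121835828 (+ strand) and opposite to Sh2b3, had 3.62 and 2.62 TMM-scaled CPM in spermatocyte-like, 6.43 and 4.77 in round spermatid-like and 251 and 212 in late spermatid-like cells. Its log2 fold change at the later step was 5.39 (SE 0.22; edgeR adjusted p = 1.0e-10). 1700034G24Rik had 7.76 and 5.73, then 280 and 240 (5.29, SE 0.19), and 1700029B22Rik, opposite to Fgfr2, had 7.10 and 5.09, then 208 and 219 (5.15, SE 0.19). These 3 are non-coding, and in each the later class was over 16 times the earlier in both mice.

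Coding genes with the same late course were 1700025G04Rik and 1700008P02Rik. 1700025G04Rik spans chr1:151852403-152090125 (- strand) and went from 5.32 and 5.09 to 207 and 184 TMM-scaled CPM (log2 fold change 5.23, SE 0.18). 1700008P02Rik went from 11.8 and 10.0 to 393 and 363 (5.12, SE 0.15). The Sertoli-like and Leydig-like cells held 3 and 4 UMIs of these genes, or 22.1 and 29.5 plain CPM. Among the 102 members higher at both steps, 16 rose at least 16-fold at the later step. Their log2 fold changes at the earlier step lay between 0.81 and 1.98, and were positive by that choice. Total-count scaling lowers all log2 values of the later step by about the shift of the median given above.

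Members that peaked in round spermatid-like cells fell again. 1700041C23Rik, a non-coding gene at chr9:57175275-57186108 (+ strand), had 9.19 and 7.39, 816 and 651, and 43.5 and 38.7 TMM-scaled CPM in the classes in order. Its log2 fold changes were 6.46 (SE 0.17) and −4.16 (SE 0.16), the latter the strongest late fall of any member (edgeR adjusted p = 4.6e-11). 1700124L16Rik, non-coding and opposite to Ankrd53, had 118 and 106 in round spermatid-like and 16.8 and 14.2 in later cells (−2.85, SE 0.18).

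1700029J07Rik, protein coding at chr8:45953606-45975252 (- strand), went from 6.84 and 8.08 to 244 and 270 and back to 50.1 and 51.1 (log2 fold changes 5.11, SE 0.16, and −2.34, SE 0.14). 1700018F24Rik, coding with the near-identical copy Gm4871, had no call between the first classes (161 and 153 against 146 and 170) and fell to 26.97 and 25.1 (−2.61, SE 0.15). 1700010H22Rik, described above, fell by 2.43 on the log2 scale (SE 0.16). These genes were chosen among members that fell at the later step in both mice, so agreement of the mice there follows from the choice. At the earlier step the mice gave the same order of classes, except for 1700018F24Rik, whose first classes overlapped. 1700010H22Rik was chosen in the same way at that step too.

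The courses that follow depend on TMM scaling. They were not counted with total counts, which left only 64 members higher at the later step. Over both steps, 102 members (44.5%) were higher at each, the largest of the 9 combinations. The same course was found for 14.7% of all rows tested and 19.3% of the rows with as many UMIs. Another 43 (18.8%) were higher and then lower, against 13.9% of the rows with as many UMIs. A further 19 (8.30%) were higher and then without a call, against 6.10% of those rows. Of the 42 that fell at the earlier step, 14 fell again, 12 rose and 16 had no call. These were 6.11%, 5.24% and 6.99% of the members, against 19.4%, 8.83% and 15.97% of the rows with as many UMIs. The sign of the log2 ratio was the same in both mice for 225 members at the earlier and 222 at the later step. The same was not counted for other rows. Coding genes made up 25 of the 43 members with a round spermatid peak, and non-coding genes 14 of the 16 that fell first and then had no call. Of all members 44.1% were coding and 49.8% non-coding.

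**Figure D5:**
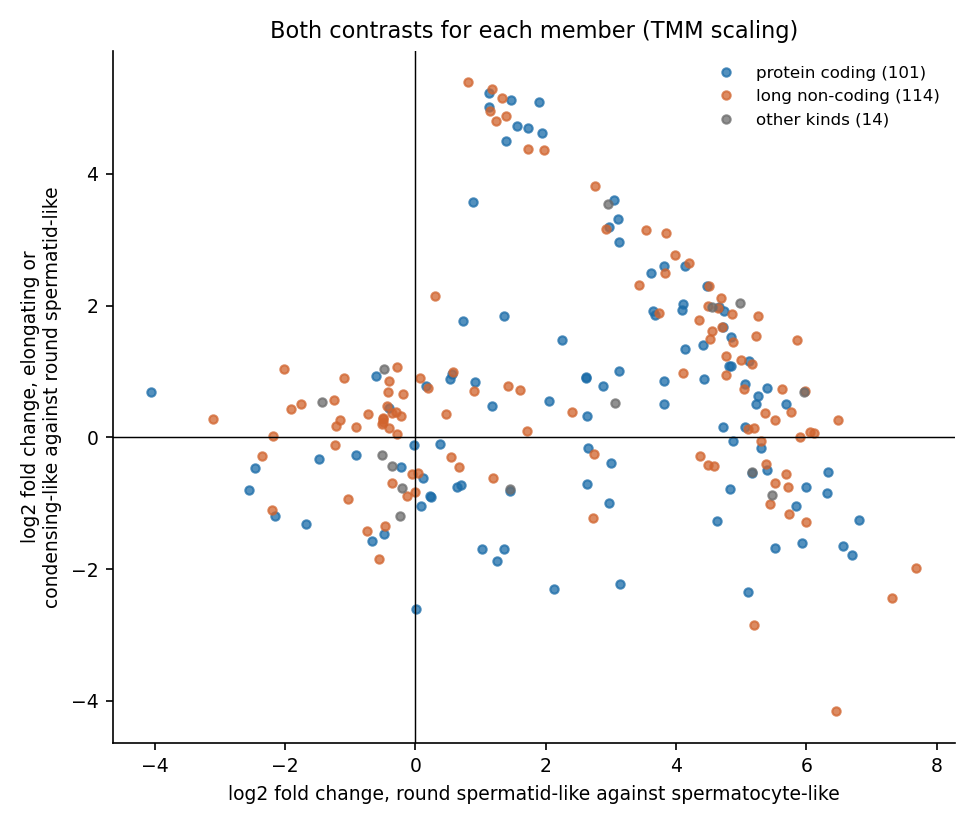
Log2 fold changes of each member from spermatocyte-like to round spermatid-like cells (horizontal axis) and on to late spermatid-like cells (vertical axis), coloured by kind of gene, after TMM scaling. The upper right part is the fullest, and the points there end along a falling line, with the largest sum of both log2 changes at 7.34.

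The line at which these points end can be set beside the 4 late chromatin genes. For the 102 members higher at both steps, the level in spermatocyte-like cells was 0.619% to 56.4% of that in late spermatid-like cells, with a median of 1.42%. Prm1, Prm2, Tnp1 and Tnp2, which belong to the end of spermatid development, had 1.004%, 1.20%, 1.001% and 0.970%, and 32 of the 102 members were at or under the highest of these. For such members the level in spermatocyte-like cells was thus as low, relative to the late level, as that of protamine RNA. The part of free RNA in these low levels was not tested.

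All 6 members on the X chromosome, which is silenced in pachytene spermatocytes, were higher in round spermatid-like than in spermatocyte-like cells. So were 95.2% of the 84 X-linked rows with as many UMIs, so this count is near the background of the chromosome. The gene with the smallest rise was 1700080O16Rik, with 8.99 and 10.8 TMM-scaled CPM in spermatocyte-like and 54.6 and 66.7 in round spermatid-like cells (log2 fold change 2.62, SE 0.16). 1700013H16Rik had 3.76 and 3.69, then 126 and 142 (5.17, SE 0.18). 1700084M14Rik, 1700003E24Rik, 1700010D01Rik and 1700020N15Rik rose by log2 fold changes of 4.48 to 4.74, but each has a near-identical copy.

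At the later step 5 of the 6 were higher after TMM scaling, against 54.8% of those X-linked rows, with log2 fold changes from 0.90 for 1700080O16Rik to 2.30 for 1700020N15Rik. 1700013H16Rik was lower, at 80.0 and 104 (−0.54, SE 0.14; edgeR adjusted p = 0.0053). That last call was lost, at −0.17 and −0.13, when the unnamed cluster was counted with round spermatid-like cells and when only the 2000 most variable rows were clustered. The rise of 1700080O16Rik was lost with total counts, at 0.02.

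Of all rows tested 8.92%, and of the rows with as many UMIs 4.19%, passed neither test, as did 5 members (2.18%). 1700123L14Rik, a single-exon gene at chr6:96164497-96166243 (- strand) listed as coding by GENCODE and as a transcribed pseudogene by RefSeq, was the most abundant of them, with 50967 UMIs. Its TMM-scaled CPM were 872 and 732, 805 and 771, and 743 and 713 in the 3 classes. The range of its spermatocyte-like values overlapped those of the other classes, while its round spermatid-like values lay above its late ones. Its calls depend on the scaling and the classes: it was lower at both steps with total counts (−0.33 and −0.99 on the log2 scale), and lower at the later step with the unnamed cluster counted as round spermatid-like (−0.41). In plain CPM it had 276 and 357 in cluster 1 and 1215 and 1161 in cluster 2, a contrast inside the spermatocyte-like class that the class sums do not show. The others were 1700101I19Rik, 1700047M11Rik, 1700063I16Rik and 1700003G18Rik, with 1489 to 3746 UMIs. With the mouse as a block, 1700101I19Rik passed at the later step (0.32), and 1700047M11Rik (−0.35 and 0.36) and 1700063I16Rik (−0.33 and −0.45) passed at both. With total counts all 5 were lower at the earlier step.

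Of the remaining abundant members, 1700028J19Rik and 1700018B24Rik peaked in cluster 2, at 1758 and 1784 and at 1247 and 1124 CPM, and were lower at the earlier step (log2 fold changes −0.90, SE 0.10, and −1.04, SE 0.12). 1700020D05Rik, a single-exon gene that overlaps Snx32 on the same strand, was higher in clusters 2 and 3 (1169 to 1252 CPM) than in cluster 6 (108 and 117 CPM). 1700016K19Rik rose by 1.17 (SE 0.11) at the earlier step, and its later rise of 0.47 turned to −0.41 with total counts and missed the threshold without a filter (0.31, edgeR adjusted p = 0.052).

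Since GENCODE or RefSeq has given newer names to some of these genes, 21 members carry another RefSeq symbol, and all 21 were counted as a group. Of all members, 71.6% were higher at the earlier step and 52.4% at the later. Of the rows with as many UMIs, 39.3% and 33.4% were higher. Among the 21, 18 (85.7%) were higher and 2 lower at the earlier step, and 13 (61.9%) higher and 6 lower at the later. The following were picked from them for their known or named roles after their values were seen. 1700034O15Rik is Llcfc1, which sperm need to fuse with the egg, and had 28.5 and 25.8 TMM-scaled CPM in spermatocyte-like, 1045 and 992 in round spermatid-like and 1486 and 1419 in later cells. 1700024P04Rik is H2bl1, a histone H2B variant of spermatids, with 34.3 and 27.5, then 396 and 360, then 2304 and 1971.

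1700006E09Rik is Cfap97d1, a gene of the sperm tail, with 8.72 and 9.23, then 226 and 249, then 715 and 807 TMM-scaled CPM. 1700018C11Rik is Tex48, a testis expressed gene, with 21.0 and 18.4, then 536 and 575, then 1143 and 1208. All 4 of these genes were higher at both steps. 1700040L02Rik, named Cabcoco1, ran the other way, from 372 and 315 to 110 and 104 and to 51.7 and 34.3 (log2 fold changes −1.68, SE 0.15, and −1.32, SE 0.17).

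Lists of known genes give a frame for these courses. Unlike the members, these genes took part in the clustering. Each list also shares genes with the markers that named the clusters, such as Prm1, Tnp1, Acrv1, Odf1 and Sycp1. Their directions were therefore in part set by how the classes were made. The 7 genes of spermatid chromatin packaging were higher at both steps without exception. Of 13 acrosome genes, the acrosome being the vesicle of enzymes over the sperm head, 9 were higher and 3 lower at the earlier step, and none was higher and 11 lower at the later. Of 20 genes of the sperm axoneme and flagellum, 12 and 4 were higher and lower first, and 7 and 12 next. Of 12 genes of meiotic prophase, 3 were higher and 8 lower first, and 4 and 6 next. The members, with 164 and 42 and then 120 and 69, had a larger share higher at the later step than the acrosome and flagellum lists, as counts without a test of the difference.

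The members nearest the minimum had courses of different kinds. 1700094M24Rik was higher at the earlier step (log2 fold change 4.59, SE 0.19) and lower at the later (−0.44, SE 0.16). That later call was lost with DESeq2, with all rows or the 2000 most variable rows clustered, with K = 10 and with another seed. It was also lost after thinning and with the unnamed cluster in either neighbouring class. 1700080N15Rik was higher at both, by 3.44 (SE 0.23) and 2.31 (SE 0.19), with 475 and 408 of its 1314 UMIs in late spermatid-like cells. 1700110K17Rik was higher at the later step only, by 2.14 (SE 0.17). Of the 250 RIKEN 1700 genes under the minimum, 187 could be tested, and 120 (64.2%) were higher and 24 (12.8%) lower in round spermatid-like cells. At the later step 85 were higher and 24 lower. A gene of so few UMIs that passed the filter through the class where it is high had to differ, so these counts are a description. Of 156 genes named for other RIKEN testis clones with as many UMIs as the members, 93 (59.6%) and 40 (25.6%) were higher and lower at the earlier step and 55 and 50 at the later. Their median log2 fold changes were 1.24 and −0.05, against 2.72 and 0.45 for the members. No test of these differences between lists was made.

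Among members with at least 100 UMIs in a class, summed over the mice, none differed more than 2-fold between the mice in spermatocyte-like, unnamed, round spermatid-like or late spermatid-like cells. Of the rows with as many UMIs as the members, 0.429% to 0.612% did so in these classes, so a count of 0 among 184 to 220 members is near the background. The largest differences in the same direction were those of 1700019M22Rik, 1700092M07Rik and 1700065D16Rik. 1700019M22Rik, a pseudogene at chr12:96046767-96047120 (- strand), had 2848 and 1876 TMM-scaled CPM in late spermatid-like cells and 658 and 496 in round spermatid-like cells. 1700092M07Rik had 2292 and 1539, and 377 and 254. 1700065D16Rik, which lies opposite to Atr, had 77.7 and 54.1 in spermatocyte-like and 37.4 and 18.6 in late cells. Mouse 1 was higher in each case. With 1 library per mouse, animal and library cannot be told apart here.

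Promoters are shown because most members were higher in spermatids and the promoter letters were not used by the rule. RefSeq promoter windows on GRCm38.p6, from 250 bases before to 50 after a transcript start, were found for 170 members, 188 windows in all. Each was searched on both strands for TGACGTCA and TGACG (the cyclic AMP response element and its shorter form, which the longer one contains), GTTGCC (part of an RFX site), CAGTTA (a MYB site) and TATAAA (the TATA box). Factors of the CREM, RFX and MYB families have known roles in spermatogenesis. A match is a description of letters, not of binding.

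GTTGCC or its reverse complement GGCAAC stood in 33 of the 188 windows (17.6%), against 12.5% of all 32851 windows and 16.6% of the windows of genes with as many UMIs. In the 50 bases just before the start it was found in 14 windows (7.45%), against 2.41% of all windows and 4.46% of those of genes with as many UMIs. CAGTTA stood in 30 windows (15.96%), against 10.1% and 8.40%, and near the start in 3.72%, against 1.61% and 1.08%. TGACG was in 22.9% (20.8% and 32.8%) and near the start in 7.98% (5.88% and 11.1%). TGACGTCA was in 1.60% (1.79% and 3.70%) and near the start in 1.06% (0.627% and 1.41%). TATAAA was in 12.2% (13.6% and 7.85%) and near the start in 0.532% (3.50% and 1.31%). The share of CAGTTA was thus above, and that of TGACG below, the share among genes with as many UMIs, without a test. The position near the start was looked at after the sequences had been seen.

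The 120 bases before the start of 3 named members with a match to GTTGCC follow, 5' to 3' on the strand of the gene, with the match in capitals. In all 3 it is written GGCAAC and begins 17 or 18 bases before the start, at chr17:8988213-8988332 (+ strand), chr6:40940558-40940677 (- strand) and chr8:45975253-45975372 (- strand).
1700010I14Rik: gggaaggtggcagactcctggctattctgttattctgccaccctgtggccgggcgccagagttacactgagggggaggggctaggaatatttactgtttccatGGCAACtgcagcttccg
1700074P13Rik: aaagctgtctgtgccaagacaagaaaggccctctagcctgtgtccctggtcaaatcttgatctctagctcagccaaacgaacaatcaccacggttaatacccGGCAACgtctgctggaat
1700029J07Rik: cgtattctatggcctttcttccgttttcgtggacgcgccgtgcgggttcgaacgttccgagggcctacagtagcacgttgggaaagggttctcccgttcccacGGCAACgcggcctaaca

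The 3 genes do not share a course. 1700010I14Rik was highest in cluster 2 and lower at both steps (log2 fold changes −0.48 and −1.46). Its earlier call was lost when only the 2000 most variable rows were clustered (−0.20, edgeR adjusted p = 0.070) and when the unnamed cluster was counted as round spermatid-like (−0.0419, adjusted p = 0.73). 1700074P13Rik was higher at both steps (log2 fold changes 0.74, SE 0.11, and 1.77, SE 0.11), and 1700029J07Rik peaked in round spermatid-like cells.

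The same stretch is given for 3 members with CAGTTA or its reverse complement TAACTG in capitals, at chr7:131146319-131146438 (+ strand), chr15:81980420-81980539 (+ strand) and chr2:132490608-132490727 (+ strand). The second also holds CGTCA, the reverse complement of TGACG, in capitals. 1700029B22Rik has matches 99 and 75 bases before the start and is a late riser, while 1700029P11Rik and 1700026D11Rik, with matches 111 and 25 bases before it, were lower in round spermatid-like than in spermatocyte-like cells.
1700029B22Rik: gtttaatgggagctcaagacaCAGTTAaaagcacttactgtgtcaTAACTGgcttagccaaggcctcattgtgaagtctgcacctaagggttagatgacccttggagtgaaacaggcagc
1700029P11Rik: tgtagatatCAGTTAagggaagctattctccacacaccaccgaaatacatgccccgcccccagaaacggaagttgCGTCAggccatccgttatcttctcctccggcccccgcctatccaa
1700026D11Rik: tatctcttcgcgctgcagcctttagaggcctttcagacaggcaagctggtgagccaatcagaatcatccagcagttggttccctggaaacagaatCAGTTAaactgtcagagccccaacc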

How the data were processed

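Single-cell RNA of testes from 2 mice was measured with 1 Chromium 3' v2 library per mouse. According to the methods and the submitters' processing notes, the authors demultiplexed reads with bcl2fastq 2.17.1.14 and Cell Ranger 2.0.0, counted them on GRCm38 (mm10) with repeat sequences added, and pooled the mice after downsampling reads. The deposited matrix holds whole, unnormalized UMI counts. All 2552 cells and 51868 rows were kept, and barcode endings gave the mouse. The depth was 27450497 and 30302332 UMIs.

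The members and gene lists were chosen with earlier results of these data known. K-means (K = 9, 10 restarts, seed 42) ran on 10 principal components of 25689 rows with a UMI, without 2101 rows of RIKEN genes. A cluster was named from its best marker list if at least 3 markers reached 1.5 times the CPM of all cells. Scrublet called 25 doublets, which were kept.

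Counts summed per mouse and class were tested with edgeR 4.0.16 after TMM scaling and filterByExpr. The fit held the 3 classes and the unnamed cluster, with 2 mice each. p-values measure the spread between these mice. On simulated data for the earlier step, edgeR recovered 179 of 200 genes changed 4-fold among 13213, with 10 false calls. Apart from these 200 genes, the simulated classes had the same gene proportions and 1 fixed spread. The simulation thus does not cover classes that differ in most of their genes, as the real ones did. Same-numbered sums come from 1 animal, and their deviations had correlations of 0.0775 to 0.128 over 14264 genes, so the mouse was fitted as a block as an alternative. Other alternatives were DESeq2 1.42.0, its size factors, no filter, clusterings on other rows, K = 10, another seed, thinning to 5000 UMIs per cell, no doublets, the unnamed cluster in either neighbouring class and each mouse alone. Total-count scaling was added after the TMM factors had been seen.

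Named members are the 10 with the most UMIs, those on sex chromosomes and the 3 nearest the minimum on each side. Also named are the 3 that differed most between the mice and up to 5 called at neither step. For each direction of each step the 5 with the largest called change were named. They were taken only from members that moved the same way in both mice. All 229 matched GENCODE M21 by identifier, and 215 a RefSeq symbol. Near-identical genes have a last stretch of 500 bases with at least 95% identity over 200 bases in blastn 2.17.0. Calculations used Python 3.11.15, numpy 2.4.6, scikit-learn 1.9.0, scanpy 1.11.5, R 4.3.3 and matplotlib 3.10.9.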

Additional observations from a re-analysis of the deposited data

How the results depend on the processing

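The number of members higher at the earlier step was 157 to 168 over 14 alternatives (164 as reported). The number lower was 30 to 56 in 13 alternatives and 26 after thinning of cells (42 as reported), and of the 42 members lower as reported 26 to 42 were called lower again. At the later step, 106 to 125 were higher and 61 to 73 lower, except 64 and 120 with total counts. The replicate block, for the mouse, gave 166 and 47 at the earlier and 125 and 72 at the later step and changed 7 of 90 calls of named members, all of which then passed. With 1 mouse left out no spread remains, so the test was not run, and a positive log2 ratio was found for 172 to 176 members at the earlier step (174 as reported) and 142 to 149 at the later (146). The minimum of the rule at a mean of 0.25 or 1 UMI per cell kept 278 or 171 genes. With CPM divided by TMM factors, the highest level lay in cluster 1 for 3 members, in cluster 3 for 14, in cluster 5 for 18 and in cluster 6 for 90, against 10, 22, 34 and 53. Each mouse alone gave 10 to 13, 46 to 48, 24, 55 to 56, 35 to 37 and 54 to 56 members in clusters 1 to 6.

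Of 1440 values of 45 named members under alternatives, 1347 were counted as the same, 24 lost and 30 gained a call. Another 11, all ratios of 1 mouse alone, lay further from the fitted value than the spread of the mice, and 28 turned direction. That spread was taken from the same 2 ratios, so most ratios of 1 mouse counted as the same by construction. A ratio could also count as moved because the mice were close, as for 1700041C23Rik at the earlier step (6.46 and 6.45). Ratios of 1 mouse alone have no call. For members without a call they counted as the same within the spread of the mice, even where the sign turned. This held for 1700123L14Rik and 1700018F24Rik at the earlier and 1700003G18Rik at the later step. Of the 28 values counted as turned, 11 came with total counts, which lower all genes at a step by about the same amount. The cause of the other 17 was not tested. With total counts, the log2 fold changes at the earlier step became −0.0689 for 1700020D05Rik, −0.30 for 1700018F24Rik and −0.000570 for 1700110K17Rik. At the later step they became −0.82 for 1700003G18Rik, −0.60 for 1700052K11Rik, −0.18 for 1700006A11Rik, −0.37 for 1700065D16Rik, −0.51 for 1700047M11Rik, −0.55 for 1700101I19Rik, −0.41 for 1700016K19Rik and −0.195 for 1700008K24Rik. 1700123L14Rik turned to 0.0462 at the earlier step with the 2000 most variable rows, 0.0777 with DESeq2, 0.0778 with its size factors, 0.0782 after thinning, 0.0498 without a filter, and 0.11 with the unnamed cluster as round spermatids. That placement also gave 0.11 and, at the later step, −0.50 for 1700003G18Rik, −0.0600 for 1700047M11Rik, −1.68 for 1700052K11Rik and −0.14 for 1700065D16Rik. With the unnamed cluster as spermatocytes, 1700018F24Rik had −0.202 at the earlier step. The most variable rows gave −0.21 for 1700003G18Rik and −0.93 for 1700052K11Rik at the later step. Without a filter 1700003G18Rik had −0.10 there, and after thinning 1700026D11Rik had 0.26 there and 1700063I16Rik 0.0277 at the earlier step.

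Counts rest on 2 mice and on class names rebuilt from markers. Levels of a few CPM, and levels at or under those in Sertoli-like and Leydig-like cells, were not separated from free RNA.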
